A study of Mus musculus with 15 samples.

Results

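The Shroom family is a group of actin-binding scaffold proteins, and its 4 mouse genes, Shroom1, Shroom2, Shroom3 and Shroom4, were followed here in mechanically stretched podocytes, together with every transcript that the annotation gives them. The genes were chosen by family name, by a rule that uses no measured value but was set with earlier results of these data known, and matched by Ensembl identifier to symbol: 4 genes of the 55416 in the gene count table, and 26 transcripts of the 140789 in the transcript table. RNA came from 15 samples of SVI, a conditionally immortalised mouse podocyte line, so every group shares 1 line and its immortalising background. The cells were differentiated on flexible silicone membranes and were either left unstretched or deflected mechanically, with low stretch labelled as a deflection of 5 to 6 mm and high stretch as 7 to 8 mm. In experiment 1 there were 6 samples under low stretch and 3 without stretch, in experiment 2 there were 3 under high stretch and 3 without. Amplitude and experiment are therefore the same split, and the controls of a stretched group were always those of the same experiment. The labels give replicate numbers without saying whether the samples of a group are separate cultures from separate passages, so p-values measure only the spread between these samples, which may be technical.

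Shroom proteins share a carboxy-terminal region that drives myosin II activity, so that actomyosin contracts where the Shroom protein sits, typically at apical junctions of epithelia. Shroom3 is the best studied member: it drives apical constriction during neural tube closure, and in the kidney it is needed for normal podocyte architecture, where it also interacts with the kinase Fyn. Shroom2 binds the tight junction protein ZO-1 and acts on endothelial and epithelial contractility, and Shroom4, an organiser of cortical actin, has been linked to an X-linked form of intellectual disability. Shroom1 is the relative of the Xenopus apical protein APX. Shroom3 has a long form whose amino-terminal end includes a PDZ domain, which binds other proteins, and a short form without it.

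Total gene counts ran from 172211836 to 396658285 per sample, and 0 pairs of samples held identical counts. Of 11 podocyte markers, 6 were at 1 CPM (counts scaled to the library's TMM-adjusted total) or above in every sample and 4 were under 1 CPM in every sample. Nphs1, which encodes nephrin, reached at most 0.98 CPM, whereas Synpo, which encodes synaptopodin, was at 253.6 CPM or above in every sample. Of 5 endothelial markers and 4 leukocyte markers, 0 were at 1 CPM or above in every sample, whereas 3 of 4 proximal tubule and 3 of 3 parietal epithelial markers were. The podocyte markers summed to 1396.6 to 1703.1 CPM under low stretch against 1241.3 to 1379.4 CPM, higher without overlap. Of all single genes tested, 15.9% had groups without overlap under low stretch and 20.9% under high stretch. Actn4 and Synpo weighed most in this sum (low-stretch medians 912.4 and 348 CPM). Wt1, Podxl and Magi2 were lower (-1.16, -0.43 and -0.26, adjusted p = 0.0688, 0.0762 and 0.272 by edgeR's test), and the other podocyte markers tested were higher. Under high stretch their sum was 2367.4 to 2914.6 CPM against 1718.5 to 2607 CPM, with overlap. The parietal epithelial sums overlapped in both experiments. The 4 proximal tubule markers summed to 493.8 to 805.1 CPM under low stretch against 988 to 1360 CPM in its unstretched samples, and to 319.7 to 490.6 CPM under high stretch against 966.2 to 1237 CPM, so that this sum was lower in both stretched groups. The 5 mesangial markers, of which 2 were at 1 CPM or above in every sample, summed to 57.2 to 79.2 CPM under low stretch against 87 to 104.1 CPM, and to 104.1 to 125.2 CPM under high stretch against 125.8 to 162.1 CPM, also lower without overlap. Single markers went both ways: Nes rose in both comparisons (0.97 and 1.47, adjusted p = 0.0051 and 0.0175), Lrp2 and Pdgfrb fell under low stretch (-0.65 and -0.56, adjusted p = 0.0227 and 0.0199), Wt1 and Aqp1 fell under high stretch (-2.36 and -3.62, adjusted p = 0.0311 and 0.0135), and Cubn differed by 0.27 and 0.41 (adjusted p = 0.193 and 0.752). The part of these markers in the results below was not tested. One unstretched sample of experiment 2, replicate 3, stood apart: its score on the first principal component of log2 CPM, which held 70.2% of the variance, was 32.5, against 121.4 and 162.6 for the other 2. Experiment 2 differences of the Shroom genes, their family shares, main transcripts and called pathway genes are also given without it. Changes of RNA per cell and of cell number cannot be told apart in such bulk samples.

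The 4 genes differed greatly in level. Shroom1 had between 0 and 2 counts in each sample, where 3 counts would correspond to 0.0076 to 0.017 CPM, and it was not tested. The other 3 genes were well covered in every sample, with 4670 to 32255 counts for Shroom2, 55730 to 149564 for Shroom3 and 5875 to 64076 for Shroom4. On the TPM scale, which divides reads by transcript length and library total and so allows levels to be compared between genes, Shroom3 made up most of the family in every sample. Its share of the summed TPM of the 4 genes was 64.4% ± 1.28 (SD, n = 3) in unstretched cells of experiment 1 and 82.8% ± 2.89 (SD, n = 3) in those of experiment 2. Shroom4 held 22.3% ± 1.54 and 9.91% ± 1.51 in the same groups, and Shroom2 held 13.3% ± 0.757 and 7.23% ± 1.4. The order Shroom3, Shroom4, Shroom2 held in the mean of each of the 4 groups, and the levels of Shroom3 lay above those of the others in every sample. The summed TPM of all Shroom1 transcripts never exceeded 0.0946.

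The transcripts that carry the Shroom3 results differ in their first exons, and the map of Shroom3 transcripts shows where these lie. The annotation (GENCODE M21, GRCm38, chromosome 5, plus strand) gives 11 Shroom3 transcripts, which fall into 9 groups by their first splice donor, with the single-exon Shroom3-208 and Shroom3-209 each a group of its own, numbered here from the most upstream. Start 1 gives the longest coding form, Shroom3-203 (ENSMUST00000113055, 1980 codons), and Shroom3-204 (ENSMUST00000168878, 1849 codons). Start 3, 125.9 kb downstream, gives Shroom3-202 (ENSMUST00000113054, 1805 codons), and start 5, 214.6 kb downstream, gives Shroom3-201 (ENSMUST00000113051) with the same 1805 codons. Start 4, 173 kb downstream, gives Shroom3-211 (ENSMUST00000225438, 1899 codons), the only one of the 11 whose start the annotation marks as supported by CAGE, an assay that reads capped transcript ends.

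**Figure D1:**
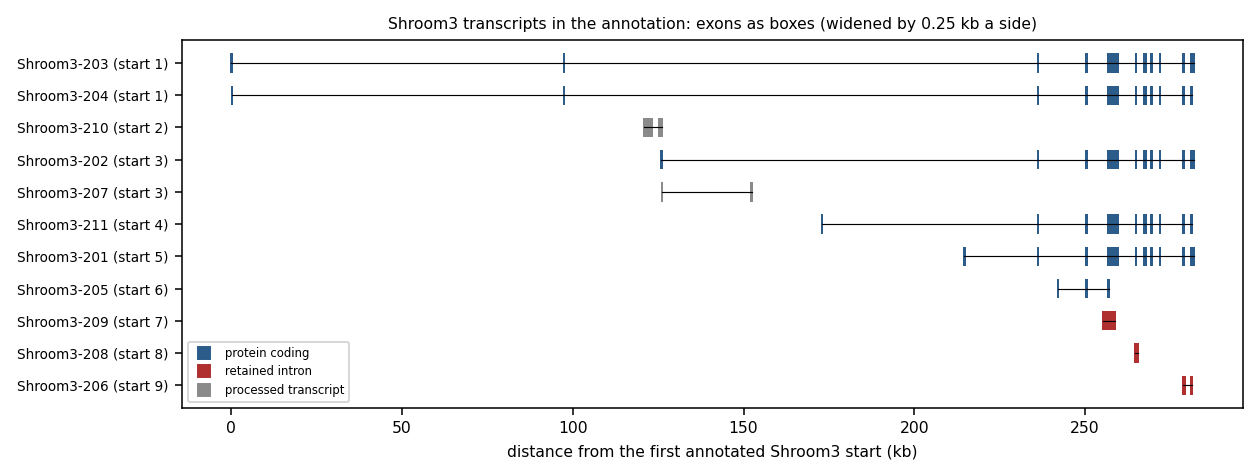
Annotated Shroom3 transcripts by distance in kb from the first start, with exons as slightly widened boxes coloured by transcript type and the start number beside each name. The protein-coding forms from starts 1, 3, 4 and 5 differ at the left and share their downstream exons, while the 3 retained-intron transcripts lie at the right end.

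The first 90 coding bases of these 4 forms, read from the GENCODE M21 transcripts and printed 5′ to 3′, show which part of each form could tell it from the others. Capitals mark bases that are coding in none of the other 3 forms.
Shroom3-203, start 1: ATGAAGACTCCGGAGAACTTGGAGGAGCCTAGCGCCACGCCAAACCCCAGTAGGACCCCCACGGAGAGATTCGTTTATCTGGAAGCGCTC
Shroom3-202, start 3: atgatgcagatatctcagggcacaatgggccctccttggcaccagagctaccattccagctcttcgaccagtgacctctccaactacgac
Shroom3-211, start 4: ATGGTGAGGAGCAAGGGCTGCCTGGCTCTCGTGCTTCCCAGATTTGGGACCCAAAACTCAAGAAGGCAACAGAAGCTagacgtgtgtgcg
Shroom3-201, start 5: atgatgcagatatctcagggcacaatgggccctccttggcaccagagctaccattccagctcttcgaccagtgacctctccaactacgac
Starts 3 and 5 share their start codon, at position 92933827 in exon 3, and so the whole coding sequence, which also lies inside the coding sequence of the other forms. Start 1 has its start codon at position 92683667 in exon 1. Start 4 has its own, at position 92856513 in exon 1. This codon opens 77 coding bases that no other form holds, after which the form runs into a shared exon. Of the 5742 bases of Shroom3-211, 119 lie in no other Shroom3 transcript, against 4 of 6401 for Shroom3-202, 190 of 6765 for Shroom3-203, 228 of 6435 for Shroom3-201 and 0 of 5630 for Shroom3-204. Shroom3-211 is annotated with 0 bases after its stop codon and Shroom3-204 with 38, whereas Shroom3-202 has 594 and Shroom3-203 has 590. The TPM of each form thus comes from a model that divides reads over shared exons, and how these annotated ends bear on the division was not tested.

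Shroom3 was lower in stretched than in unstretched podocytes in both experiments, and in neither did the difference pass the test over all genes. In experiment 1 the 3 unstretched samples had 329.9, 355.9 and 381.8 CPM. The 6 low-stretch samples ranged from 203.3 to 355.3 CPM with a median of 267.5. Replicates 5 and 6 of low stretch, at 355.3 and 342.2 CPM, lay within the unstretched range and the other 4 lay below it, so the groups overlapped. The log2 fold change was -0.37 (SE 0.15), a change of -22.5%, with an adjusted p of 0.18 by edgeR's quasi-likelihood test. In experiment 2 the unstretched samples had 556.6, 455.5 and 555.9 CPM and the high-stretch samples 329, 387 and 408.3 CPM. Every high-stretch sample lay below every unstretched one. The log2 fold change was -0.48 (SE 0.17), a change of -28.5%, with an adjusted p of 0.236, and -0.43 (adjusted p = 0.167) without unstretched replicate 3. Of all genes tested, 15.9% had groups without overlap under low stretch and 20.9% under high stretch, and 5.45% and 3.47% passed the test, while 0 of the 3 Shroom genes tested passed in either comparison. At an unadjusted p under 0.05 the counts were 2 of 3 under low stretch, where 23.6% of all genes reached it, and 1 of 3 under high stretch, where 14.6% did.

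**Figure D2:**
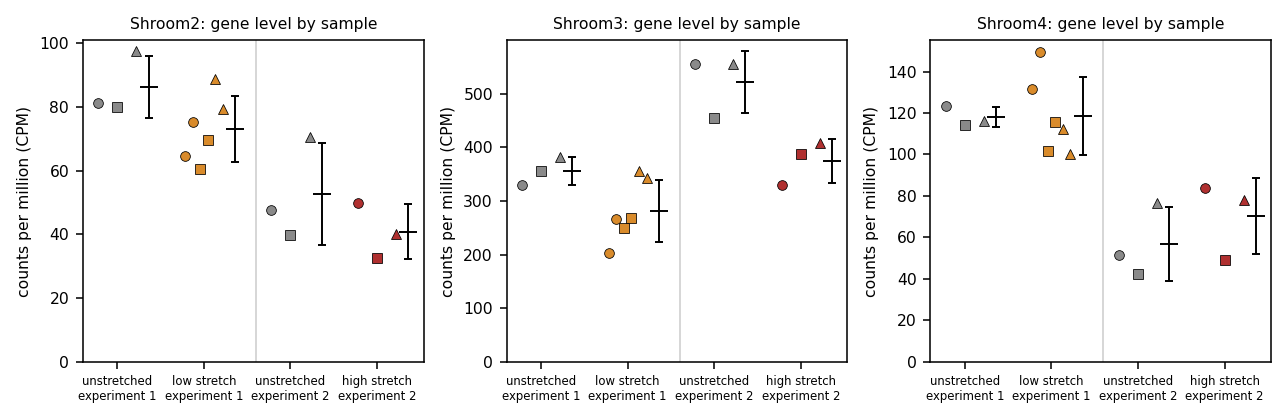
CPM of Shroom2, Shroom3 and Shroom4 in each of the 15 samples, with the group mean and SD as a bar to the right of the points and the marker shape showing the position run (circle 1, square 2, triangle 3). Shroom3 in the 3 high-stretch samples lies between 329 and 408.3 CPM, below all 3 unstretched samples of experiment 2.

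The codes in the sample descriptions form an unbroken series of positions, with no mark between runs. The series was cut here before each unstretched sample, so the codes do not give the run boundaries. This put the samples of experiment 1 in 3 runs of neighbouring positions, each with 1 unstretched and 2 low-stretch samples. What a position stands for is not given in the sources used here. Deviations from the group means were correlated within every one of the 9 same-run pairs (r from 0.247 to 0.585, across genes). Within runs, the low-stretch mean of Shroom3 differed from the unstretched sample by -0.49, -0.46 and -0.13 on the log2 scale, so it was lower in 3 of 3. With the run as a block, Shroom3 fell by 0.39 (log2, SE 0.089, adjusted p = 0.0084) and Shroom2 fell by 0.27 (SE 0.064, adjusted p = 0.0096) under low stretch, whereas Shroom4 differed by -0.03 (adjusted p = 0.76). The block raised the share of all genes called to 28.2%, so 2 of 3 Shroom genes called stands beside a far higher background than the 5.45% without it. In experiment 2, where a run holds 1 sample of each group, Shroom3 was lower in 3 of 3 runs, by -0.76, -0.24 and -0.45, and its adjusted p with the block was 0.31, where 8.35% of genes were called.

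Shroom2, the ZO-1 binding member, was lower on average in both stretched groups, with overlap in each. Unstretched samples of experiment 1 had 81.3, 80 and 97.6 CPM, and the low-stretch samples ranged from 60.5 to 88.9 CPM with a median of 72.4. Low-stretch replicate 5 was the only one of the 6 within the unstretched range. The log2 fold change was -0.27 (SE 0.12, adjusted p = 0.196). In experiment 2, unstretched samples had 47.5, 39.8 and 70.6 CPM and high-stretch samples 49.7, 32.4 and 40.2 CPM, and the highest value belonged to unstretched replicate 3. The log2 fold change there was -0.37 (SE 0.26, adjusted p = 0.645), and -0.09 (adjusted p = 0.833) without unstretched replicate 3, so 1 sample set most of that value.

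Shroom4 showed no difference under low stretch beyond its spread. Its unstretched samples had 123.4, 114.3 and 116.3 CPM, and the low-stretch samples ranged from 100.4 to 149.5 CPM with a median of 114, on both sides of them. Replicates 1 and 2 of low stretch, which share a run, were the highest of all samples of that experiment at 131.7 and 149.5 CPM. The log2 fold change was -0.02 with a 95% interval from -0.28 to 0.24 (adjusted p = 0.936), and its sign depended on the samples included. Under high stretch the samples had 83.6, 49.2 and 78.1 CPM against 51.2, 42.3 and 76.6 CPM unstretched. The groups overlapped, and the log2 fold change of 0.31 (SE 0.28, adjusted p = 0.76) became 0.59 (adjusted p = 0.166) without unstretched replicate 3.

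For none of the 3 genes did the effects of high and low stretch pass a test of the difference itself, a contrast over all 15 samples. The difference (high-stretch minus low-stretch log2 fold change) was -0.14 (SE 0.24) for Shroom3, -0.12 (SE 0.26) for Shroom2 and 0.3 (SE 0.28) for Shroom4, each with an adjusted p of 0.9998, and 0 of 22015 genes (0%) passed, although 2.48% had an unadjusted p under 0.05. Leaving out 1 sample moved the difference to between -0.22 and -0.05 for Shroom3, the latter without high-stretch replicate 1 or unstretched replicate 3 of experiment 2. For Shroom2 it moved to between -0.28 (without high-stretch replicate 1) and 0.19 (without that unstretched replicate 3). For Shroom4 it moved to between 0.14 (without unstretched replicate 2 of experiment 2) and 0.62 (without unstretched replicate 3). The 95% interval for Shroom3, from -0.65 to 0.37, leaves room for differences larger than either effect, and experiment and amplitude cannot be told apart in it.

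By log2 fold change, Shroom2 and Shroom4 differed more between the 2 sets of unstretched cells than with stretch. For Shroom3 the sizes were close, at 0.54 between the sets and -0.48 under high stretch. Shroom4 was lower in unstretched cells of experiment 2 than of experiment 1 by 1.08 (log2 fold change -1.08, SE 0.22, adjusted p = 0.0056), and Shroom2 was lower as well (-0.74, SE 0.22, adjusted p = 0.0199). The Shroom2 call was kept without unstretched replicate 2 of experiment 1 or replicate 3 of experiment 2 and lost in the other 4 leave-outs (-1.02 to -0.57, adjusted p from 0.00035 to 0.088). Shroom3 was higher (0.54, SE 0.17, adjusted p = 0.0238). The groups did not overlap for any of the 3, but 62.5% of all 20707 genes tested were called in that comparison (29.7% higher and 32.7% lower) and 72.5% had groups without overlap, so a call here says little about this family. For Shroom3 the call was lost when any one of the 3 unstretched samples of experiment 1, or unstretched replicate 1 of experiment 2, was left out (adjusted p from 0.0634 to 0.127), and without any one of unstretched replicate 1 or 3 of experiment 1 or replicate 1 of experiment 2 only 1 of the 3 genes was called. Shroom4 stayed called without each sample (adjusted p from 6.12e-05 to 0.028).

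As a share of the family, Shroom3 was lower and Shroom4 higher in the mean of both stretched groups, but no share passed an exact test after adjustment. Shroom3 held 59.3% ± 6.02 (SD, n = 6) of the family TPM under low stretch, a difference of -5.12 percentage points from unstretched samples, with a two-sided exact permutation p of 0.202. Under high stretch it held 76.4% ± 5.9 (SD, n = 3), a difference of -6.42 points (exact permutation p = 0.2, where 0.1 is the smallest p that 3 against 3 can give). Shroom4 held 27.4% ± 6.07 and 16.2% ± 4.37, which was 5.07 and 6.28 points more, with the same exact permutation p-values. The share of Shroom2 differed from its unstretched mean by 0.028 and 0.079 points. Leaving out 1 sample moved the high-stretch difference of Shroom3 to between -9.36 and -3.47 points and that of Shroom4 to between 4.29 and 8.62 points, the smaller differences without high-stretch replicate 1 and the larger without high-stretch replicate 2. Without unstretched replicate 3 the differences were -8.09, 7.15 and 0.881 points for Shroom3, Shroom4 and Shroom2. Adjusted over the 8 comparisons, the p-values were 0.27 for Shroom3 and Shroom4 and 0.94 for Shroom2. Low-stretch replicates 1 and 2 had the lowest Shroom3 shares, 50.7% and 54.1%, and the highest Shroom4 shares.

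Within Shroom3, the dominant transcript was the short form from start 3, Shroom3-202, and its TPM was lower in stretched cells. In unstretched samples it had 75.6, 80.1 and 88.4 TPM in experiment 1 and 79, 58.3 and 112.4 TPM in experiment 2. The low-stretch samples ranged from 33.1 to 76.2 TPM with a median of 49.4, with replicates 5 and 6 at 76.2 and 74.1 near the unstretched values and the other 4 at or under 51.4. The high-stretch samples lay together at 42.3, 42.3 and 45.5 TPM, below all 3 unstretched ones, and 16% of all transcripts tested by TPM had groups without overlap there. On log2(TPM + 0.1) the difference was -0.64 (SE 0.24, adjusted p = 0.224 by limma over 63329 transcripts, of which 0.658% passed) under low stretch and -0.89 (SE 0.24, adjusted p = 0.227 over 53042, of which 0.485% passed) under high stretch. Without unstretched replicate 3 the high-stretch difference was -0.65 (adjusted p = 0.157). With the run block the low-stretch difference reached an adjusted p of 0.0488, where 8.82% of transcripts passed.

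Shroom3-211, the form from start 4 with its own coding start, was higher in stretched cells. It had 10, 11.7 and 9.35 TPM in unstretched and 12.3 to 15.5 TPM in low-stretch samples, and 14.1, 13 and 13.5 TPM in unstretched and 17.7, 16.4 and 18.7 TPM in high-stretch samples. Every stretched sample lay above every unstretched sample of its experiment, which held for 9.94% of all transcripts under low stretch and 16% under high stretch. The differences were 0.36 (SE 0.11, adjusted p = 0.149) and 0.37 (SE 0.14, adjusted p = 0.457) on log2(TPM + 0.1), so neither passed, and the latter was 0.37 (adjusted p = 0.307) without unstretched replicate 3.

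**Figure D3:**
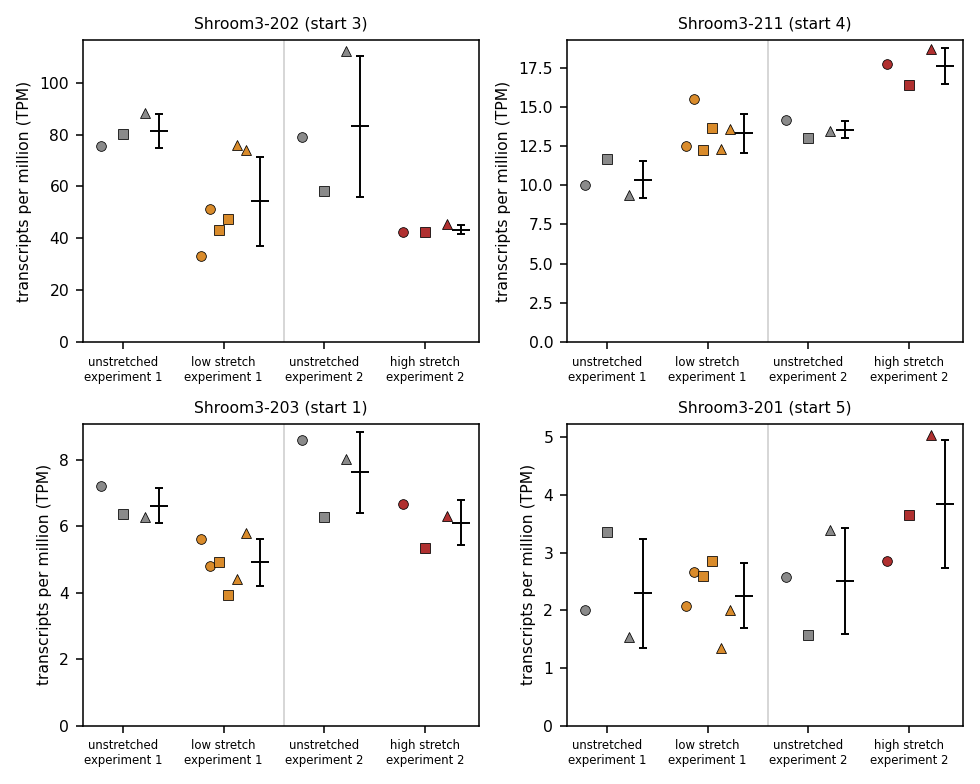
TPM of the 4 Shroom3 coding forms from starts 3, 4, 1 and 5 in each sample, with group mean and SD as a bar to the right and marker shape showing the position run. Shroom3-202 is lower and Shroom3-211 higher in all 3 high-stretch samples than in all 3 unstretched samples beside them.

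As a share of the gene's TPM, Shroom3-211 was higher in every stretched sample than in the unstretched samples of its experiment. Shroom3-211 took 9.23%, 10.2% and 7.53% of Shroom3 TPM in the unstretched samples of experiment 1 and between 11.2% and 20.7% under low stretch, with a mean of 16.8% ± 3.68 (SD, n = 6). It took 13.2%, 16.2% and 9.38% in the unstretched samples of experiment 2 and 24.9%, 23.8% and 24.3% under high stretch. No stretched share fell within the unstretched range of its experiment, as was so for 5.44% of all transcripts tested for usage under low stretch and 14.5% under high stretch. Usage, the log2 ratio of a transcript to the rest of its gene, differed by 1.01 (SE 0.23, adjusted p = 0.249) under low stretch and by 1.15 (SE 0.24, adjusted p = 0.345) under high stretch, where it was 0.91 (adjusted p = 0.211) without unstretched replicate 3. Among all transcripts, 4 of 27720 (0.0144%) passed under low stretch and 0 of 23408 under high stretch, with 8.04% at an unadjusted p under 0.05 there. With the run block the low-stretch usage difference of Shroom3-211 passed (adjusted p = 0.0391), as did 0.133% of transcripts. Without low-stretch replicates 5 and 6 and their unstretched neighbour the difference was 1.13 (adjusted p = 0.132).

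The share of Shroom3-202 was lower without overlap under high stretch and overlapped under low stretch. It took 73.7%, 72.6% and 78.2% of Shroom3 TPM in the unstretched samples of experiment 2 and 59.6%, 61.5% and 59.1% under high stretch, without overlap, as was so for 14.5% of all transcripts tested for usage. Its usage differed by -0.99 (SE 0.16), which had an unadjusted p of 0.00073 and an adjusted p of 0.252 over all 23408 transcripts. Without unstretched replicate 3 the difference was -0.85 (adjusted p = 0.161). In experiment 1 it took 69.5%, 70.1% and 71.2% unstretched and from 54.8% to 72.8% under low stretch, with a median of 64.3%. Replicate 6 of low stretch lay above all 3 unstretched samples and replicate 5 just below them, and the usage difference was -0.35 (SE 0.21, adjusted p = 0.612). A test of whether the usage effects of high and low stretch differed gave -0.63 (SE 0.29, adjusted p = 0.998) for Shroom3-202 and 0.14 (SE 0.36, adjusted p = 0.998) for Shroom3-211, with 0.0339% of 26551 transcripts passing and 4.85% at an unadjusted p under 0.05.

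**Figure D4:**
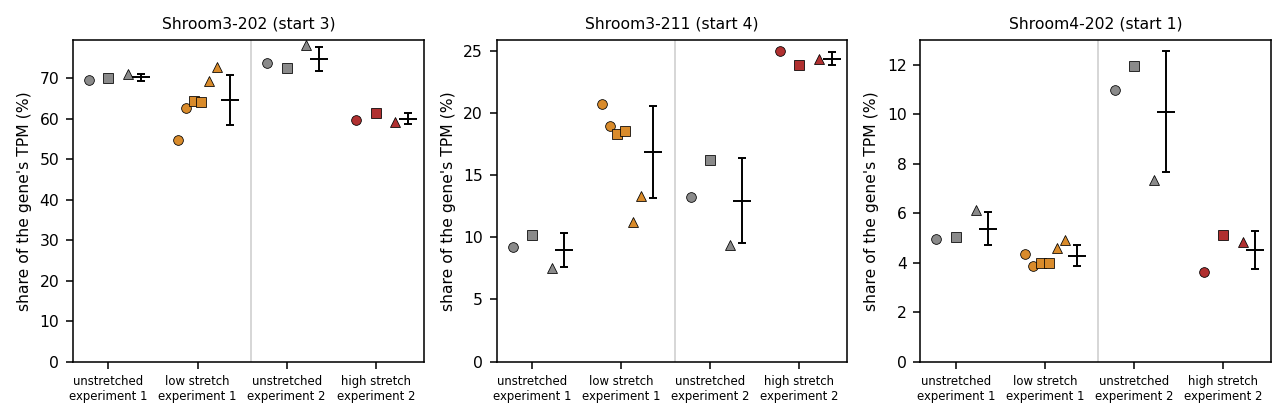
Share of the gene's TPM, in percent, taken by Shroom3-202, Shroom3-211 and Shroom4-202 in each sample, with group mean and SD as a bar to the right and marker shape showing the position run. The 3 high-stretch samples lie at 59.1% to 61.5% for Shroom3-202 and at 23.8% to 24.9% for Shroom3-211, outside the range of the unstretched samples of that experiment.

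Grouping transcripts by first exon, a choice made after the data were seen, left these values almost as they were. Start 4 holds Shroom3-211 alone and differed in usage by 1.01 (adjusted p = 0.26) under low stretch and 1.15 (adjusted p = 0.283) under high stretch. Start 3 adds only the processed transcript Shroom3-207 and differed by -0.36 (adjusted p = 0.588) and -0.98 (adjusted p = 0.197). Of all start groups, 0 of 17325 and 0 of 13698 passed, with 10.2% and 8.19% at an unadjusted p under 0.05.

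The long forms from start 1, which carry the amino-terminal PDZ region, were a small part of Shroom3 in every sample. Shroom3-203 had 7.22, 6.38 and 6.28 TPM in unstretched samples of experiment 1 and 3.93 to 5.79 TPM under low stretch, all 6 below the 3, and 9.94% of all transcripts tested by TPM had such groups without overlap. In experiment 2 it had 8.59, 6.27 and 8.01 TPM unstretched and 6.66, 5.36 and 6.31 TPM under high stretch, with overlap. The differences on log2(TPM + 0.1) were -0.43 (SE 0.14, adjusted p = 0.165) and -0.31 (SE 0.2, adjusted p = 0.764), while its share of the gene, 5.76% ± 0.807 (SD, n = 3) unstretched and 6.26% ± 1.84 (SD, n = 6) under low stretch, and 7.13% ± 1.35 and 8.46% ± 0.833 (SD, n = 3 each) in experiment 2, showed no usage difference that passed (adjusted p = 0.928 and 0.814). Shroom3-204, which has no base of its own, was listed at 5.95, 5.92 and 9.52 TPM in unstretched samples of experiment 1 and at 1.3 to 8.56 TPM under low stretch. In experiment 2 it was listed at 1.44, 0 and 2.88 TPM unstretched and at 0 in all 3 high-stretch samples. An exact 0 beside a well-measured gene can be a failed estimate, so no fold is given for it. The test of its TPM gave adjusted p-values of 0.244 and 0.476, and 0.0352 for high stretch without unstretched replicate 2, the sample of that group listed at 0, where 0.242% of transcripts passed.

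Shroom3-201, which encodes the same protein as Shroom3-202 from start 5, had 1.34 to 3.36 TPM in experiment 1 with overlap between the groups. In experiment 2 it took 2.4%, 1.95% and 2.36% of Shroom3 TPM unstretched and 4.01%, 5.31% and 6.56% under high stretch, without overlap. It was below the usage filter of 5% of the gene. Of the transcripts above that filter, 14.5% had groups without overlap under high stretch. The remaining Shroom3 transcripts encode no full protein. The retained-intron transcript Shroom3-208 (ENSMUST00000200869) had 2.37, 1.87 and 2.91 TPM in unstretched samples of experiment 1 and 0.649 to 1.92 TPM under low stretch. Shroom3-206 (ENSMUST00000172752) had 4.79, 4.26 and 5.06 TPM against 1.69 to 4.39 TPM. Low-stretch replicate 5 was the highest of its group for both and overlapped the unstretched range. Their differences of -1.07 (SE 0.3, adjusted p = 0.131) and -0.85 (SE 0.25, adjusted p = 0.149) did not pass, and with the run block both transcripts fell (adjusted p = 0.0133 and 0.0285). In experiment 2 they stood at 0.0616 to 0.83 TPM and 0.389 to 1.79 TPM, and neither difference passed (adjusted p = 0.866 and 0.924). Shroom3-210 was at 0.251 to 0.808 TPM, and Shroom3-205, Shroom3-207 and Shroom3-209 stayed under 0.27 TPM in every sample.

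Promoter sequence for Shroom3 was at hand for starts 3 and 5 only, both from RefSeq (GRCm38.p6), and is shown because these starts give the same protein with very different levels. The 250 bases before each start were searched on both strands for 5 short motifs, none of which overlap another in these windows, and capitals mark matches. Start 3 lies after chr5:92809132-92809381 and start 5 after chr5:92897743-92897992, both on the plus strand.
Before start 3: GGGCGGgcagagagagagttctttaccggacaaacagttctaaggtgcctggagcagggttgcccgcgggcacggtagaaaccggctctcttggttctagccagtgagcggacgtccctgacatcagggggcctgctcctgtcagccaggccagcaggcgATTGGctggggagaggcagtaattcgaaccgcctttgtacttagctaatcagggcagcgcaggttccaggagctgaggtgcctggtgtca
Before start 5: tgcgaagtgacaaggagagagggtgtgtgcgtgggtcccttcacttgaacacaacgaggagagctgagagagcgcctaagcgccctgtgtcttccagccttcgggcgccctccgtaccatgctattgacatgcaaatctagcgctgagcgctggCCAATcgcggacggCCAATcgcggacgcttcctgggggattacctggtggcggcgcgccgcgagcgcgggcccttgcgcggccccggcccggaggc
Start 3 has 1 CCAAT box on the reverse strand, 90 bases before the start, and 1 GC box at the far end of the window. Start 5 has 2 CCAAT boxes on the forward strand, 96 and 82 bases before the start, and no GC box. Of 32851 mouse promoters in the same table, 33.8% hold the CCAAT box in this window. The GC box, GGGCGG, is in 32.7% of them. The other motifs searched were the TEAD motif GGAATG, held by 12.6% of promoters, then the AP-1 motif TGANTCA, held by 6.75%, and the TATA box TATAAA, held by 12.4%, and neither window has any of these letters.

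Shroom2 came almost wholly from 1 start (chromosome X, minus strand) and from 2 coding transcripts that differ by 18 coding bases at an exon end and also in length after the stop codon, with 3019 bases in Shroom2-202 and 2536 in Shroom2-201. Reads over either difference bear on their shares, so the shares do not measure the 18-base choice alone. The junction in Shroom2-202 (ENSMUST00000101141, 1487 codons) and in Shroom2-201 (ENSMUST00000062317, 1481 codons) is printed from the GENCODE M21 transcripts, with the 18 bases in capitals.
Shroom2-202: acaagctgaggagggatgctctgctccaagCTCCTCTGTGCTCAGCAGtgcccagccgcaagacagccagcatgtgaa
Shroom2-201: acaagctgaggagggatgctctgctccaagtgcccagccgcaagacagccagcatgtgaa
Shroom2-201, the form without the 18 bases, took 69% ± 1.62 (SD, n = 3) of Shroom2 TPM in unstretched cells of experiment 1 and 69.4% ± 1.25 (SD, n = 6) under low stretch. In experiment 2 it took 67.7% ± 3.51 unstretched and 70.1% ± 3.68 under high stretch (SD, n = 3 each). Its usage differed by 0.02 (SE 0.084, adjusted p = 0.955) and 0.15 (SE 0.19, adjusted p = 0.885), and that of Shroom2-202 by -0.04 (SE 0.074) and -0.16 (SE 0.22). Without unstretched replicate 3 the high-stretch values were 0.26 and -0.23 (adjusted p = 0.605 and 0.718). The TPM of both was lower under low stretch, from 15.6 to 18.1 TPM unstretched to 9.99 to 16 TPM for Shroom2-201 and from 5.45 to 7.39 TPM to 3.56 to 5.92 TPM for Shroom2-202. Neither difference passed (-0.38 and -0.41, adjusted p = 0.242 and 0.263), and both did with the run block (adjusted p = 0.0481 and 0.0438). The 4 processed transcripts of Shroom2 stayed under 0.84 TPM, and 1 of them was listed at 0 in every sample.

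Shroom4 (chromosome X, plus strand) has 3 transcripts in the annotation, each from a start of its own. Shroom4-201 (ENSMUST00000089520, 1359 codons), from the most downstream start, took 55.7% to 66.4% of Shroom4 TPM over the 15 samples. Shroom4-203 (ENSMUST00000143641), an incomplete model of 200 codons, took 27.8% to 35.6%. The longest coding form, Shroom4-202 (ENSMUST00000103005, 1475 codons), which starts 177.4 kb upstream of Shroom4-201, took 11%, 12% and 7.34% in unstretched samples of experiment 2 and 3.63%, 5.1% and 4.82% under high stretch. These groups did not overlap, and neither did those of experiment 1, with 4.97%, 5.03% and 6.14% unstretched and 3.87% to 4.92% under low stretch. Of all transcripts tested for usage, 14.5% had groups without overlap under high stretch and 5.44% under low stretch, where the filter left this form out. The usage difference under high stretch was -1.14 (SE 0.3, adjusted p = 0.453), and -1.38 (adjusted p = 0.231) without unstretched replicate 3. In experiment 1 the form was below the usage filter. When the spread was estimated over all 15 samples in one fit, the high-stretch difference passed (adjusted p = 0.034), as did 0.911% of transcripts in that fit. In TPM it differed by -0.43 (SE 0.17, adjusted p = 0.251) and -0.82 (SE 0.32, adjusted p = 0.463), from 1.97 to 2.43 TPM down to 1.18 to 1.92 TPM and from 1.02 to 1.55 TPM down to 0.491 to 0.819 TPM. Without unstretched replicate 3 of experiment 2 the high-stretch differences in TPM were -0.69 for Shroom4-202, -0.27 for Shroom3-203, 0.03 for Shroom2-201 and -0.20 for Shroom2-202, and the adjusted p-values from 0.381 to 0.972.

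Shroom1 (chromosome 11, plus strand) had 6 transcripts, of which 4 were listed at 0 in every sample. The retained-intron transcript Shroom1-205 (ENSMUST00000146001, 4548 bases) was listed at 0.0172 to 0.0946 TPM in every sample, although the gene table held at most 2 counts. It held 0.0652 to 0.0829 TPM unstretched and 0.0723 to 0.0946 TPM under low stretch, and 0.0172 to 0.0328 TPM unstretched and 0.0528 to 0.0927 TPM under high stretch. The high-stretch samples all lay above their unstretched ones. Groups without overlap were found for 16% of the transcripts above the TPM filter, which this one did not reach. As a share of family TPM Shroom1 had 0.0821% under high stretch against 0.0223% (exact permutation p = 0.1, the smallest possible) and 0.0617% under low stretch against 0.0408% (exact permutation p = 0.0357, and 0.27 adjusted over the 8 comparisons). Why the 2 tables differ for this gene was not tested.

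A list of 59 genes was drawn up by role around Shroom proteins, and whether each acts with them was not tested. Of these, 57 passed the filter on low counts in experiment 1 and 55 in experiment 2. Under low stretch 4 were higher and 3 lower by edgeR's test, where 1.85% of all genes were called higher and 3.6% lower. Under high stretch 3 were higher and 1 lower, against 1.31% and 2.16% of all genes. The median log2 fold change of the list was 0.09 under low stretch and -0.02 under high stretch, beside 0.01 and -0.02 over all genes. With the run block, 18 were higher and 11 lower under low stretch, where 28.2% of all genes were called, and 5 were higher and 4 lower under high stretch, where 8.35% were. The counts moved with single samples, and so did the shares of all genes. Leaving out each in turn gave 1 to 6 higher and 1 to 5 lower under low stretch. Of all genes, 0.218% to 2.82% were called higher there and 0.78% to 4.75% lower. Under high stretch the counts were 0 to 7 higher and 0 to 2 lower, beside 0% to 3.42% and 0.0755% to 4.35% of all genes. The 7 and 2 came without unstretched replicate 3 of experiment 2, where 3.42% and 4.35% of all genes were called higher and lower. Both counts were 0 without high-stretch replicate 1 or 3 or unstretched replicate 1, where only 0.488%, 0.0755% and 0.628% of all genes were called.

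Fyn, the kinase that binds Shroom3 and phosphorylates nephrin, was the only gene of the list called in both comparisons without a block. With the run block 9 were, namely Fyn, Myl9, Mylk, Actn1, Daam1, Prickle1, Cdh1, Celsr1 and Tjp3, the last 2 named after their values were seen. That block called 28.2% of all genes under low stretch and 8.35% under high stretch, where it equals the replicate block. The share of all genes called in both comparisons was not computed, so neither count is read as a result about the list. Fyn rose from 54.1 ± 8.98 (SD, n = 3) to 90.2 ± 9.02 CPM (SD, n = 6) under low stretch (log2 fold change 0.71, SE 0.12, adjusted p = 0.01), and from 55.5 ± 6.77 to 104.7 ± 11.2 CPM (SD, n = 3 each) under high stretch (0.91, SE 0.17, adjusted p = 0.0313). The low-stretch call was kept without each of the 9 samples, and the high-stretch call without 1 of 6 only, unstretched replicate 3 (1.01, adjusted p = 0.0066). Nphs1, which encodes nephrin, was at no more than 0.98 CPM beside it.

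Rhoc, a small GTPase upstream of actomyosin contraction, rose under low stretch from 130.7 ± 18.9 to 212.7 ± 32.2 CPM (0.67, adjusted p = 0.0227), and its difference of 0.56 under high stretch did not pass (adjusted p = 0.48). The low-stretch call was kept in 6 of 9 leave-outs (adjusted p from 0.0177 to 0.126).

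Of the 10 genes tested in the myosin II group, which also lists regulators such as Mylk, 1 rose under low stretch and 1 fell under high stretch. Of all genes, 1.85% were called higher under low stretch and 2.16% lower under high stretch. Myl9, a regulatory light chain of myosin II, rose under low stretch from 23.3 ± 3.35 to 46.1 ± 13.2 CPM (0.96, adjusted p = 0.0387), with 1.05 and an adjusted p of 0.14 under high stretch, where it passed with the run block (adjusted p = 0.0012) and without unstretched replicate 3 (0.81, adjusted p = 0.0484). Mylk, the myosin light chain kinase, fell under high stretch from 156.3 ± 49.2 to 64.4 ± 3.04 CPM (log2 fold change -1.28, adjusted p = 0.0284), with -0.83 and an adjusted p of 0.11 under low stretch, where it passed with the run block (adjusted p = 0.00073). Mylk was at -1.01 under high stretch without unstretched replicate 3 (adjusted p = 0.0068). The low-stretch call of Myl9 was kept in 2 of 9 leave-outs and the high-stretch call of Mylk in 2 of 6 (adjusted p up to 0.178 and 0.179). The heavy chains Myh9 and Myh10 differed by -0.03 and -0.07 under low stretch (adjusted p = 0.888 and 0.688) and by 0.18 and -0.04 under high stretch (adjusted p = 0.799 and 0.986), the latter 2 being 0.29 and 0.34 (adjusted p = 0.352 and 0.42) without unstretched replicate 3.

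Of the actin partners, Actn1, an actin crosslinker, rose under high stretch from 714 ± 120.7 to 1669 ± 183.6 CPM (1.22, adjusted p = 0.0207), with 0.78 and an adjusted p of 0.0549 under low stretch, where it passed with the run block (adjusted p = 0.0001). Its high-stretch call was kept in 3 of 6 leave-outs, one of them without unstretched replicate 3 (1.12, adjusted p = 0.0034). Lmo7, a junctional actin-binding protein, fell under low stretch from 24.4 ± 2.77 to 17 ± 0.625 CPM (log2 fold change -0.55, adjusted p = 0.0063), a call kept in 9 of 9 leave-outs. Of the junction genes, Tjp1, which encodes ZO-1, differed by -0.06 and -0.22 (adjusted p = 0.798 and 0.883), and Cdh1, which encodes E-cadherin, fell under low stretch (-1.18, adjusted p = 0.0391) at mean levels of 0.213 CPM and under. Of the planar polarity genes, Daam1 rose (0.51, adjusted p = 0.0228) and Dvl3 fell (-0.32, adjusted p = 0.0398) under low stretch, and Prickle1 rose under high stretch (1.71, adjusted p = 0.0369) at mean levels of 0.442 CPM and under. Daam1 passed under high stretch as well without unstretched replicate 3 (1.13, adjusted p = 0.0306). In leave-outs the calls were kept in 6 of 9 for Daam1, 1 of 9 for Dvl3, 3 of 9 for Cdh1 and 1 of 6 for Prickle1, the last without unstretched replicate 3 (2.08, adjusted p = 0.0066). With the run block Cdh1, Daam1 and Prickle1 passed in both comparisons (adjusted p from 0.00067 to 0.0442).

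**Figure D5:**
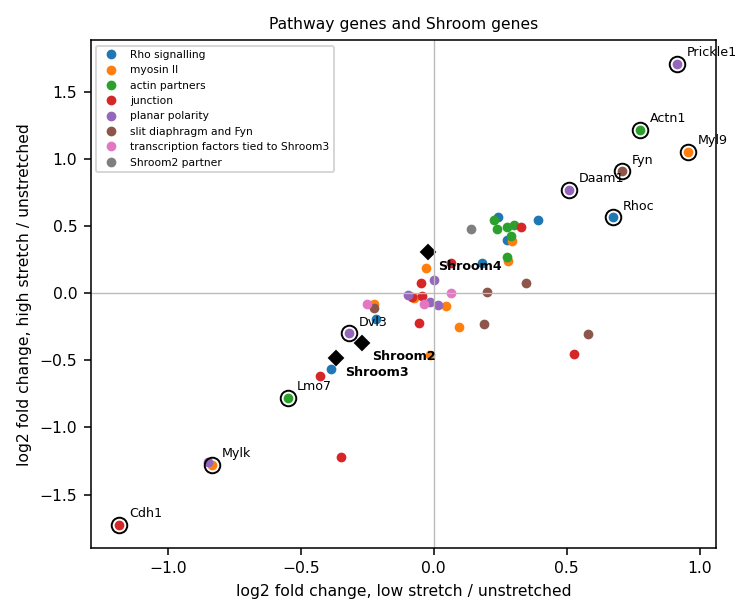
Log2 fold change of pathway genes tested in both comparisons (not all are shown), low stretch on the x axis and high stretch on the y axis, coloured by role, with black diamonds for Shroom2, Shroom3 and Shroom4. Ringed, named genes passed edgeR's test in at least 1 comparison, and Fyn is the only one that passed in both without a block.

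The genes whose pattern over the 15 samples was most like that of Shroom3, by Pearson correlation of log2 CPM after the mean of each experiment was subtracted, were Notch1 (r = 0.98), Adra1a (0.97), Sorl1 (0.95), Col4a6 (0.95) and Gm46223 (0.95), among 12937 genes with a mean of at least 1 CPM. Notch1 encodes a receptor of the Notch pathway, Sorl1 a sorting receptor, Col4a6 a basement membrane collagen chain and Adra1a an adrenergic receptor. The choice left the stretch contrast in, so how these genes differ with stretch is part of it and is not tested. The samples share libraries and the stretch contrast, so r is a description. Shroom2 ranked 1201 (r = 0.65) and Shroom4 8270 (r = -0.28).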

How the data were processed

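Poly(A) RNA of 15 SVI samples was sequenced as stranded paired-end libraries, per the labels' protocols. Gene counts were deposited by the authors as raw whole numbers, and transcript TPM values were deposited by the authors with no depth of their own. The submitters' processing notes name STAR 2.7.5c, featureCounts in Subread 2.0.0, DESeq2 1.38.3, Salmon 1.9.0 and the build mm39, without the role of each or the strand setting of the counting. Symbols, transcript links, exons and coordinates came from GENCODE M21 (GRCm38), which matched 52135 genes and 137189 transcripts, so coordinates are not in the authors' build. Promoters came from RefSeq (GRCm38.p6), which held 0 entries for Shroom1, 4 for Shroom2, 2 for Shroom3 and 3 for Shroom4.

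The gene counts went into edgeR 4.0.16 (under R 4.3.3), with TMM scaling, filterByExpr, the quasi-likelihood F test and Benjamini-Hochberg adjustment over all genes at 0.05. Transcript usage, log2 of a transcript's TPM over the summed TPM of the rest of its gene, 0.1 added to each, and log2(TPM + 0.1) were tested with limma 3.58.1 with a trend. The usage test took genes with a mean of at least 1 TPM and fractions from 0.05 to 0.95, and the TPM test took means of at least 0.1 TPM. Family shares used two-sided exact permutation tests. Fold changes on the log2(TPM + 0.1) scale understate those of low transcripts. Scripts were tested on simulated data. The depth, 172211836 to 396658285 counts a sample, sets 3 counts at 0.0076 to 0.017 CPM, and these limits cover counting error only.

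The alternatives were DESeq2 1.42.0, RLE factors, other filters and pseudocounts, linear fractions, all 15 samples in one fit, blocks on replicate number or position run, protein-coding transcripts only for family shares, and each sample left out. Grouping by first exon, leaving out position run 3 and leaving out samples for the pathway counts were added after the data were seen. Named were all 4 genes and all their transcripts, the pathway genes called in either comparison (at most 3 a role and comparison), Myh9, Myh10, Tjp1 and Fyn whatever their values, and the 5 genes most correlated with Shroom3. Some genes of the lists are not reported here. The members, lists and tests were chosen with earlier results of these data known.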

Additional observations from a re-analysis of the deposited data

Results flagged for a closer look

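Of 36 sets of 6 low-stretch values examined for a sample far from the others (CPM, TPM and shares of the Shroom genes and transcripts), 2 held one, and chance alone gives about 1 in 20. Low-stretch replicate 5 had the highest TPM of Shroom3-204 (ENSMUST00000168878), 8.56, against at most 3.4 in the other 5 samples. Low-stretch replicate 3 had the lowest share of Shroom2 taken by the processed transcript Shroom2-204 (ENSMUST00000137217), 0.775%, against 2.52% or more in the others. Shroom3-204 was called by TPM under high stretch only without unstretched replicate 2 of experiment 2 (adjusted p = 0.0352 by limma), the control listed at 0. Every high-stretch sample was listed at 0 too, which can be a failed estimate, so this call is not read as a difference.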

How the results depend on the processing

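Over all results and alternatives, 795 of 884 recomputed values kept their direction and side of the threshold or, for counts, stayed within 1.5 times. Most main values had not passed, and such a value counted as kept when it again did not pass with the same sign. The total therefore does not measure how stable the size of any effect was. The position runs were drawn here from the order of the codes, and the labels do not give them. Blocking on position run had the most effect under low stretch. It called 2 Shroom genes in place of 0 (Shroom3 at -0.391), 1 transcript by usage (Shroom3-211 at 1.01), 5 transcripts by TPM, and 18 higher and 11 lower pathway genes. Replicate numbers did not pair the samples under low stretch, where deviations of same-numbered samples correlated at -0.07 on average (-0.45 to 0.38). Under high stretch the 3 same-numbered pairs correlated at 0.22 on average (-0.26 to 0.6), against -0.3 for samples of different runs. So few pairs cannot settle whether samples are paired there. The replicate block gave 2 higher and 1 lower pathway genes under low stretch (0.803% and 1.5% of all genes) and 5 and 4 under high stretch (3.31% and 5.03%), where it is the same as the run block. It also turned the sign of Shroom4 under low stretch (0.0688), of the difference between high and low stretch for Shroom2 (0.0298), Shroom3 (0.101) and the usage of Shroom3-211 (-0.133), and of the Shroom2 family share under low stretch (-0.181 points). DESeq2 called 9 higher and 7 lower pathway genes under low stretch (6.07% and 7.03% of all genes) and 4 higher and 3 lower under high stretch (3.13% and 4.44%). One fit of all 15 samples called 1 transcript by usage under high stretch, Shroom4-202, and 0.911% of all transcripts. Keeping only genes with a mean count of at least 100 gave 0.409 for Shroom3 between the unstretched groups, no longer past the threshold. Protein-coding transcripts alone gave -0.186 points for the Shroom2 family share under low stretch. With a pseudocount of 1 TPM the usage of Shroom2-202 and Shroom2-201 under low stretch was 0.0030 and -0.0066, and without position run 3 it was 0.0392 and -0.0094, while Shroom4 was at 0.0308. The cause of these changes was not tested.

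Leaving out 1 sample at a time gave ranges that crossed 0 for the following. Shroom4 under low stretch ran from -0.0933 to 0.0196, and the difference between high and low stretch from -0.282 to 0.186 for Shroom2 and from -0.106 to 0.346 for the usage of Shroom3-211. Usage under low stretch ran from -0.0783 to 0.0309 for Shroom4-201, from -0.0792 to 0.025 for Shroom2-202, from -0.0231 to 0.0811 for Shroom2-201 and from -0.0388 to 0.218 for Shroom3-203. Under high stretch it ran from -0.309 to 0.0435 for Shroom2-202. In TPM under high stretch it ran from -0.658 to 0.0318 for Shroom2-201 and from -0.697 to 0.0316 for Shroom3-206. The Shroom2 family share ran from -0.337 to 0.419 points under low stretch and from -0.877 to 0.881 points under high stretch. The pathway counts, left out this way only after the data were seen, ran from 1 to 6 higher and 1 to 5 lower under low stretch and from 0 to 7 and 0 to 2 under high stretch. The share of all genes called moved as well, from 0.998% to 7.57% and from 0.0755% to 7.77%. Between the unstretched groups, 1 to 3 Shroom genes were called and Shroom3 ran from 0.471 to 0.631. From 0 to 1 transcripts were called by TPM under high stretch, the 1 being Shroom3-204 without unstretched replicate 2, the control listed at 0. At these depths the spread between samples, more than counting error, sets the limits for Shroom2, Shroom3 and Shroom4, and only Shroom1 lay under 3 counts.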
